A study of Mus musculus with 8 samples.

Results

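The genes described here are those of pigment cells and of the pigmented layers of the eye, read in whole retinas of mice that lose their photoreceptors. They are Tyr, Tyrp1, Dct, Pmel, Mlana, Slc45a2, Oca2 and Gpr143, which serve melanin synthesis and the melanosome, together with Ttr and Best1, which are known from pigment epithelium. They were chosen by name and not by their values, and all 10 of them are among the 57010 gene identifiers of the counts table. The libraries are WT P15, rd10 P15, rd10 P18 and rd10 P21, where P is the postnatal day, with 2 libraries of whole retina in each of the 4 groups. The rd10 mice are homozygous for a missense mutation of Pde6b, the beta subunit of the rod phosphodiesterase, which they carry in every cell, and the study's methods name wild-type littermates as controls for them and C57BL/6J as the wild-type strain. The coat and eye colour of the animals is not given in the sources used here. No WT retina at P18 or P21 was analysed here, so age and genotype cannot be told apart at these ages. Whether the 2 libraries of a group come from separate animals is not stated. Y-linked genes had 6011 and 19 counts in the rd10 P18 libraries and 7193 and 3 in those of rd10 P21. The libraries of these 2 pairs thus come from animals of different sex. For WT P15 and rd10 P15 the spread may be technical.

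Melanin is made inside melanosomes from tyrosine. Tyr catalyses the first and limiting step, Dct and Tyrp1 act on later intermediates, Pmel builds the fibrils on which the pigment is laid down, and Slc45a2 and Oca2 are transporters of the melanosome membrane. In the eye, melanin is held by the retinal pigment epithelium behind the photoreceptors, by the pigmented epithelia of the ciliary body and iris, and by melanocytes of the choroid and iris stroma. The neural retina itself makes no melanin. Ttr carries thyroxine and, bound to the retinol binding protein, retinol, and it is abundant in pigment epithelium. Best1 is a chloride channel of the basal membrane of that epithelium. A whole retina taken from the eye can bring along some of these cells, and in a bulk library fewer cells of a type and less RNA per cell cannot be told apart.

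Total counts lay between 28076947 and 33724562 per library, and the 10 genes all passed the filter on low counts. CPM, the counts scaled to library size in the usual way, are corrected below with TMM factors for library composition. Mean counts over the 8 libraries ran from 8 for Slc45a2 to 1383 for Ttr, so the level of the weaker genes rests on few reads. The retina label was borne out by the markers, since the summed CPM of 6 rod genes lay between 16644 and 43107 and that of 4 bipolar cell genes between 978 and 1409 in every library.

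The 3 enzymes of the tyrosinase family are the clearest members of the group, and the stretch before their start holds a common element. Sequences of the 250 bases before the RefSeq start (GRCm38.p6) were at hand for 5 of the 10 genes, and the M-box TCATGTG, the extended E-box read by the MITF family of pigment cell factors, was found in 3 of these, all of them tyrosinase family genes. Searched on both strands, the M-box is in 3.25% of 32851 such windows. The shorter E-box CATGTG, which lies inside the M-box, is in 12.3% of them, and among the 5 genes it was met outside an M-box only in Oca2. The windows of Tyr (chr7:87493513-87493762, minus strand), Tyrp1 (chr4:80833963-80834212, plus strand) and Dct (chr14:118052247-118052496, minus strand) are shown because these genes share the M-box and, as given below, the same 3 highest libraries, which they have in common with Pmel, Oca2, Gpr143 and Ttr. They are printed along the gene from 5′ to 3′, ending at the base before the start, with the M-box or its reverse complement CACATGA in capitals.
Tyr: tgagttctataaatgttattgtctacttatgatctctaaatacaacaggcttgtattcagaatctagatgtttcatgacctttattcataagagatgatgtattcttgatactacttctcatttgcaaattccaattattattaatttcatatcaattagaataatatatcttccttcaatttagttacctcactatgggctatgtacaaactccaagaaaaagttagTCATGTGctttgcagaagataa
Tyrp1: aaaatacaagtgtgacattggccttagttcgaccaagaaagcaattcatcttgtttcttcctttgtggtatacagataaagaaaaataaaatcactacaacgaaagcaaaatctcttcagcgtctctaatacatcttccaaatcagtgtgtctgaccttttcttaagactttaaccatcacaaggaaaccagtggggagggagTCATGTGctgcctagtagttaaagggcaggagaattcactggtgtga
Dct: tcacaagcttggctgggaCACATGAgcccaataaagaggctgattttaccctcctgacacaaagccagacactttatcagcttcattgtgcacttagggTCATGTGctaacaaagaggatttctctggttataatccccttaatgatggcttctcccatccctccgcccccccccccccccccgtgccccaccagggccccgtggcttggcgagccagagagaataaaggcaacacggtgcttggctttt
The first letter of the M-box lies 22 bases before the RefSeq start in Tyr and 47 bases before it in Tyrp1. For Tyrp1 the gene position given below is from another annotation and begins earlier, at 80834123. The Tyrp1 window runs past that base, and its M-box lies inside that gene position. Dct has 1 copy at 151 bases and another, on the opposite strand, at 232 bases. Of the other motifs, the E-box CACGTG (6.02% of windows) was in none of the 5 windows. The homeobox element TAATCC, read by OTX2 and CRX (6.25% of windows), was in Dct and Best1. A match of letters is not a bound site, and no binding was measured.

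Tyr (chromosome 7, 87424771 to 87493512, minus strand, GRCm38) was measured at 0.480 and 4.53 CPM in the WT P15 libraries, 4.74 and 7.40 CPM in rd10 P15, 1.07 and 0.378 CPM in rd10 P18, and 0.771 and 0.874 CPM in rd10 P21. The 2 WT P15 retinas thus differ 9.43-fold from each other, and replicate 2 reaches nearly the lower rd10 P15 library while replicate 1 lies among the later rd10 retinas. Tyrp1, an oxidase that acts late in eumelanin synthesis (chromosome 4, 80834123 to 80851719, plus strand), stood at 2.00 and 6.57 CPM in WT P15, 14.3 and 13.6 CPM in rd10 P15, 1.61 and 1.76 CPM in rd10 P18, and 3.14 and 4.93 CPM in rd10 P21. The rd10 P15 libraries are high and close together, and every other library is below them.

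Dct, dopachrome tautomerase (chromosome 14, 118012790 to 118052244, minus strand), had 3.14 and 20.6 CPM in WT P15, 58.2 and 58.3 CPM in rd10 P15, 8.71 and 7.62 CPM in rd10 P18, and 13.5 and 7.66 CPM in rd10 P21. The rd10 P15 libraries are almost equal, whereas the WT P15 libraries are 6.54-fold apart and the later rd10 libraries lie between them. An antisense RNA lies within Dct without sharing an exon.

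Pmel, the fibril protein of the melanosome (chromosome 10, 128704195 to 128720238, plus strand), was at 3.36 and 9.52 CPM in WT P15, 21.7 and 25.1 CPM in rd10 P15, 5.01 and 2.84 CPM in rd10 P18, and 3.77 and 5.31 CPM in rd10 P21. The same 3 libraries are the high ones. Its exons overlap those of Cdk2 and Dgka on the other strand, and since counting by strand is not stated, reads of the 3 genes cannot be told apart there. Cdk2 was at 0.480 and 2.43 CPM in WT P15, 3.09 and 4.62 CPM in rd10 P15, and highest in rd10 P18, at 5.88 and 4.57 CPM. Dgka was at 4.8 and 9.78 CPM in WT P15 and at 7.34 to 9.82 CPM in the rd10 libraries. Like Pmel, both were higher in WT P15 replicate 2 than in replicate 1, and unlike for Pmel their rd10 P18 and P21 libraries were not all below those of rd10 P15. The part of their reads in the Pmel counts was not tested. Mlana, a melanosomal membrane protein known as MART-1 (chromosome 19, 29697824 to 29708634, plus strand), gave only 3 and 12 counts in WT P15, 14 and 20 counts in rd10 P15, 11 and 0 counts in rd10 P18, and 0 and 16 counts in rd10 P21. The ages overlap, with rd10 P21 replicate 2 above rd10 P15 replicate 1 in CPM (0.559 and 0.446).

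**Figure D1:**
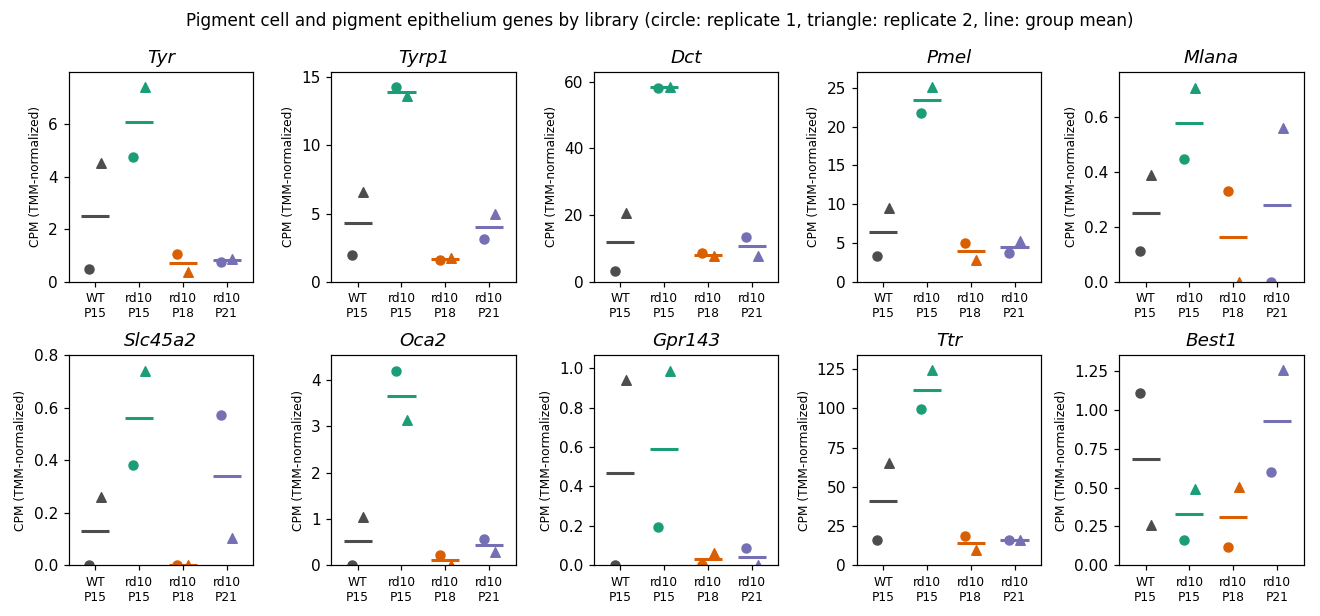
Level of each of the 10 genes in CPM (TMM-normalized, linear axis from 0, a scale of its own in each panel) in the 2 libraries of each group, with a circle for replicate 1, a triangle for replicate 2 and a line at the group mean. Tyr, Tyrp1, Dct, Pmel, Oca2 and Ttr are highest in both rd10 P15 libraries, with WT P15 replicate 2 (4.53 CPM for Tyr) above WT P15 replicate 1 (0.480 CPM), while Best1 shows another order.

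The transporters and the receptor were close to the limit of detection. Oca2, an anion transporter of the melanosome (chromosome 7, 56239760 to 56536518, plus strand), had 0 and 32 counts in WT P15, 132 and 89 counts in rd10 P15, 7 and 0 counts in rd10 P18, and 20 and 8 counts in rd10 P21. Of these weak genes it has the clearest pattern, for the lower rd10 P15 library, at 3.14 CPM, is 5.49 times the highest later rd10 library. Slc45a2, a transporter needed for melanosomal pH (chromosome 15, 11000721 to 11029233, plus strand), had 0 and 8 counts in WT P15, 12 and 21 counts in rd10 P15, no count in either rd10 P18 library, and 20 and 3 counts in rd10 P21. With 3 counts over both libraries taken as the floor at P18, Slc45a2 was at least 12-fold lower there than at P15 in these mice. This bound allows for counting error at P18 only and takes the 33 counts of rd10 P15 as exact. Gpr143, the melanosomal receptor mutated in ocular albinism (chromosome X, 152781921 to 152808646, plus strand), had 0 and 29 counts in WT P15, 6 and 28 counts in rd10 P15, 0 and 2 counts in rd10 P18, and 3 and 0 counts in rd10 P21. WT P15 replicate 2 exceeds rd10 P15 replicate 1 for Gpr143, and the groups overlap at P15.

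Ttr (chromosome 18, 20665280 to 20674321, plus strand) was the most abundant of the 10 genes. It stood at 16.2 and 65.4 CPM in WT P15, 99.4 and 124 CPM in rd10 P15, 18.9 and 9.92 CPM in rd10 P18, and 16.0 and 15.7 CPM in rd10 P21. The order of its libraries begins like that of the melanin enzymes, with both rd10 P15 retinas first and WT P15 replicate 2 next. Best1 (chromosome 19, 9985174 to 10001633, minus strand) stands apart from the other 9 genes. It had 30 and 8 counts in WT P15, 5 and 14 counts in rd10 P15, 4 and 16 counts in rd10 P18, and 21 and 36 counts in rd10 P21, so that its highest libraries are rd10 P21 replicate 2 (1.26 CPM) and WT P15 replicate 1 (1.11 CPM), of which the latter is low for the melanin genes.

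Per kilobase of exon, which allows levels to be set side by side between genes, the order in rd10 P15 was Ttr at 94.3 ± 14.9 CPM per kb (SD, n = 2), Pmel at 10.2 ± 1.06, Dct at 9.88 ± 0.0162, Tyrp1 at 4.93 ± 0.179, Oca2 at 0.926 ± 0.190 and Tyr at 0.854 ± 0.265. Mlana, Gpr143, Slc45a2 and Best1 followed, between 0.544 and 0.127 CPM per kb. Pmel and Dct overlap in their libraries, as do Oca2 and Tyr, whereas Ttr is apart from Pmel and Dct is apart from Tyrp1. By group mean the first 4 places were held by Ttr, Pmel, Dct and Tyrp1 in this order in each group. The libraries of Pmel and Dct overlapped in each group, and those of Dct and Tyrp1 in WT P15 and rd10 P21. Ttr was at 34.4 ± 29.3 CPM per kb in WT P15, 12.1 ± 5.32 CPM per kb in rd10 P18 and 13.4 ± 0.173 CPM per kb in rd10 P21. Below Tyrp1 most neighbours overlap, and the order there changes between groups.

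At P15 the comparison of rd10 with WT sets mutant beside wild-type retina of the same age, at the onset of photoreceptor loss. Y-linked genes had 4 and 12 counts in the WT P15 libraries and 5530 and 6054 in those of rd10 P15, so genotype and sex cannot be told apart in this comparison. By edgeR's quasi-likelihood test with Benjamini-Hochberg adjustment over 20457 genes, where a gene is called at an adjusted p under 0.05 and a log2 fold change beyond 1 in size, 0 of the 10 genes were called, beside 0.23% of all genes tested. An unadjusted p under 0.05 was met by 3 of the 10 (12.3% of all genes). In 8 of the 10, both rd10 P15 libraries were above both WT P15 libraries, which held for 24.8% of all genes in this direction. The median log2 fold change was 1.58 over the 10 genes and -0.01 over all genes tested. Dct had the largest fitted log2 fold change of the 5 genes with a mean count of at least 50, 2.29 ± 0.80 (SE, adjusted p = 0.329, edgeR). For Pmel it was 1.86 ± 0.49 (adjusted p = 0.166), for Tyrp1 1.70 ± 0.51 (adjusted p = 0.226), for Ttr 1.45 ± 0.64 (adjusted p = 0.441) and for Tyr 1.27 ± 0.89 (adjusted p = 0.626). DESeq2, the study's tool, called Pmel (adjusted p = 0.00757) and Tyrp1 (adjusted p = 0.0451), beside 2.11% of all genes it tested. Leaving out WT P15 replicate 2 made the log2 fold change of Dct 4.21 and a call by edgeR (adjusted p = 0.0235), and its log2 fold change was 1.50 without WT P15 replicate 1.

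The size of the difference at P15 thus rests on which WT retina is taken. Mean rd10 P15 CPM was 18.5 times that of WT P15 replicate 1 for Dct but 2.83 times that of replicate 2, and for Tyr the ratios were 12.6 and 1.34. For Pmel they were 6.96 and 2.46, for Tyrp1 6.98 and 2.12, and for Ttr 6.90 and 1.71. All 5 genes were higher in rd10 P15 than in either WT retina, by less than 3-fold against replicate 2.

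The WT P15 libraries also differ in some, but not all, other genes known from pigment epithelium. Of the 10 genes, 9 were higher in replicate 2 than in replicate 1, and the ratio was 2.83 for Pmel, 3.29 for Tyrp1, 4.03 for Ttr, 6.54 for Dct and 9.43 for Tyr. Over 15130 genes with a mean count of at least 50 the median ratio was 0.999, and it was above 2 in 3.44% and above 4 in 0.853% of them. Rpe65, the isomerase of the visual cycle and a defining gene of the retinal pigment epithelium, was at 3.47 and 15.5 CPM in WT P15, a ratio of 4.45. Rgr, an opsin of the same epithelium and of Muller glia, had a ratio of 3.96, the lactate transporter Slc16a8 one of 3.81 and Krt8, a keratin of simple epithelia with 2 and 26 counts in these libraries, one of 11.4. Over the 14 other genes of the pigment epithelium the ratio was above 2 in 7, which also include Kcnj13, Lrat and Stra6, and below 2 in the other 7. Of the latter, Enpp2 had 1.54, Rdh5 1.29, Rdh10 1.25, Rlbp1, a retinal binding protein that Muller glia also make, 1.15 and Rrh 1.13, while Krt18 (0.917) and Cldn19 (0.686) were lower in replicate 2. The part of this difference in the comparisons with WT P15 was not tested.

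**Figure D2:**
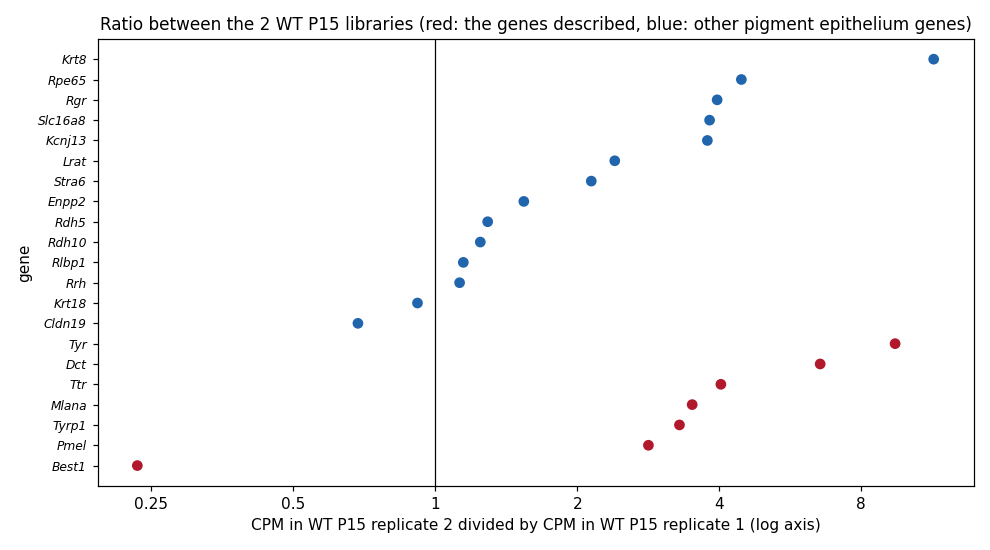
Ratio of CPM in WT P15 replicate 2 to CPM in WT P15 replicate 1 (log axis) for those of the 10 genes with counts in replicate 1 (red) and for 14 other genes of the pigment epithelium (blue), with a line at equal levels. Tyr (9.43), Dct (6.54), Ttr (4.03) and Rpe65 (4.45) lie far to the right, Rlbp1 (1.15) is near the line, and Best1 (0.234) is to its left.

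Between P15 and P18 in rd10 retina, all 10 genes had a lower fitted level at P18, and in 9 of them both rd10 P18 libraries were below both rd10 P15 libraries, against 20.4% of all genes in this direction. edgeR called 0 of the 10, beside 0.591% of all genes tested, although 7 had an unadjusted p under 0.05 (12.9% of all genes). The median log2 fold change was -3.00 over the 10 genes and 0.01 over all genes tested. Mean CPM in rd10 P15 was 8.36 times that in rd10 P18 for Tyr, 8.25 times for Tyrp1, 7.78 times for Ttr, 7.13 times for Dct and 5.97 times for Pmel. The fitted log2 fold change was -3.04 ± 0.54 for Tyrp1 (adjusted p = 0.0583, edgeR), -2.58 ± 0.50 for Pmel (adjusted p = 0.0761), -2.96 ± 0.68 for Ttr (adjusted p = 0.174), -3.05 ± 0.96 for Tyr (adjusted p = 0.249) and -2.83 ± 0.82 for Dct (adjusted p = 0.252). DESeq2 called 6 of the 10, namely Tyrp1 (adjusted p = 3e-06), Pmel (adjusted p = 1.7e-05), Ttr (adjusted p = 0.00323), Oca2 (adjusted p = 0.0195), Tyr (adjusted p = 0.0207) and Dct (adjusted p = 0.0408), beside 2.98% of all genes. Fits with fewer libraries also made edgeR calls here, and the share of all genes called in those fits was not computed. With either WT P15 library left out, Tyrp1, Dct, Pmel and Ttr were called, though these libraries are no part of the contrast.

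Between P18 and P21 the libraries of most of these genes overlapped, though all 10 had a higher fitted level at P21. The median log2 fold change was 0.60 over the 10 genes and -0.001 over all genes tested. edgeR called 0 of the 10 genes (0.0196% of all genes tested), DESeq2 called 0 (0.582% of all genes), and 2 genes had an unadjusted p under 0.05 (10.8% of all genes). In 4 of the 10 both rd10 P21 libraries were above both rd10 P18 libraries (21% of all genes in this direction). Tyrp1 had the largest fitted log2 fold change of the 5 better counted genes, 1.25 ± 0.52 (adjusted p = 0.449, edgeR), with 1.61 and 1.76 CPM at P18 against 3.14 and 4.93 CPM at P21. For Tyr, Dct, Pmel and Ttr the fitted log2 fold change was between 0.14 and 0.38, and the libraries overlap.

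Between P15 and P21 in rd10, a comparison added after the values had been seen, both P21 libraries were below both P15 libraries in 7 of the 10 genes (25.5% of all genes) and above them in 1, Best1 (26.0% of all genes). edgeR called 0 of them, beside 0.401% of all genes, and 5 had an unadjusted p under 0.05 (12.8% of all genes). The fitted log2 fold change was -2.88 ± 0.95 for Tyr, -2.82 ± 0.67 for Ttr, -2.46 ± 0.80 for Dct, -2.37 ± 0.50 for Pmel and -1.79 ± 0.51 for Tyrp1, with adjusted p between 0.106 and 0.298. DESeq2 called 4, Pmel (adjusted p = 0.000141), Ttr (adjusted p = 0.00691), Tyrp1 (adjusted p = 0.0262) and Tyr (adjusted p = 0.0354), beside 2.68% of all genes. These comparisons share their rd10 P15 libraries with those above.

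**Figure D3:**
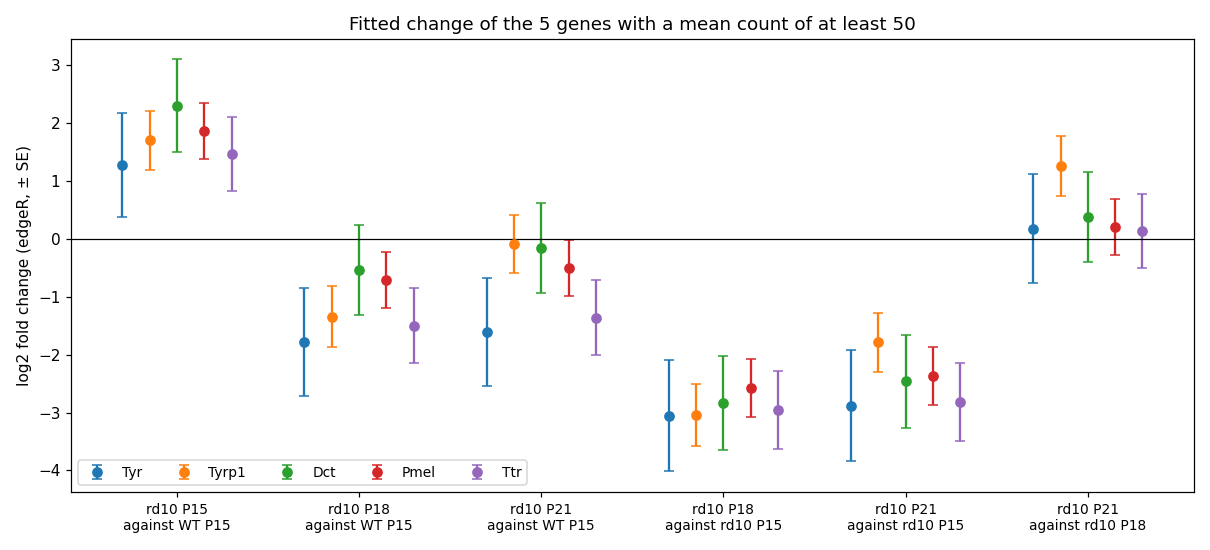
Fitted log2 fold change (edgeR, bars are ± 1 SE) of Tyr, Tyrp1, Dct, Pmel and Ttr, the 5 genes with a mean count of at least 50, in each comparison, with the first-named group over the second. The values lie above 0 for rd10 P15 against WT P15 (1.27 to 2.29). For rd10 P18 and rd10 P21 they lie between -3.05 and -1.79 against rd10 P15. Against WT P15 at these later ages they lie between -1.78 and -0.09.

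Against WT P15, all 10 genes had a negative fitted value in rd10 P18, and at P21 the value was negative for 7 and positive for 3, Best1, Slc45a2 and Mlana. At P18 edgeR called 0 of the 10 genes (1.48% of all genes tested), DESeq2 called 0 (4.7% of all genes), and 1 gene, Tyrp1, had an unadjusted p under 0.05 (17.4% of all genes). Tyrp1 was also the 1 gene whose P18 libraries were both below the WT libraries (22.9% of all genes), with a log2 fold change of -1.35 ± 0.52 (adjusted p = 0.238, edgeR). At P21 edgeR called 0 (0.386% of all genes), DESeq2 called 0 (2.74% of all genes), and 0 had an unadjusted p under 0.05 (11.8% of all genes). Ttr was the 1 gene with both P21 libraries below both WT libraries (24.2% of all genes), at 16.0 and 15.7 CPM against 16.2 and 65.4 CPM, so it lay just under WT P15 replicate 1. Without WT P15 replicate 2 the fitted difference changed sign for Tyr, Dct and Pmel at P18 and for Tyr, Tyrp1, Dct and Pmel at P21, for Dct from -0.54 to 1.38 and from -0.16 to 1.75.

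Read library by library, the 3 retinas with the most pigment gene RNA were both rd10 P15 retinas and WT P15 replicate 2. These were the 3 highest for 7 of the 10 genes, Tyr, Tyrp1, Dct, Pmel, Oca2, Gpr143 and Ttr. They were also the 3 highest for 291 (1.92%) of the 15130 genes with a mean count of at least 50. That share leaves out genes counted as weakly as Oca2 and Gpr143, whose mean counts were 36 and 8.5. The 3 libraries were read from the pigment genes themselves, so the share is a description and no test. The summed CPM of the 8 melanin and melanosome genes was 9.09 and 43.8 CPM in WT P15, 104 and 110 CPM in rd10 P15, 16.9 and 12.7 CPM in rd10 P18, and 22.4 and 19.7 CPM in rd10 P21. It spans a wide range, and the lowest and the highest value both belong to retinas taken at P15. Of 14 other genes of the pigment epithelium, 8 had the same 3 highest libraries, namely Rpe65, Lrat, Rgr, Rdh5, Stra6, Slc16a8, Krt8 and Enpp2. The summed level of all 14 genes spanned 544 to 872 CPM, of which Rlbp1 alone gave 271 to 426 CPM, and none of these genes was at 0 in more than 1 library.

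**Figure D4:**
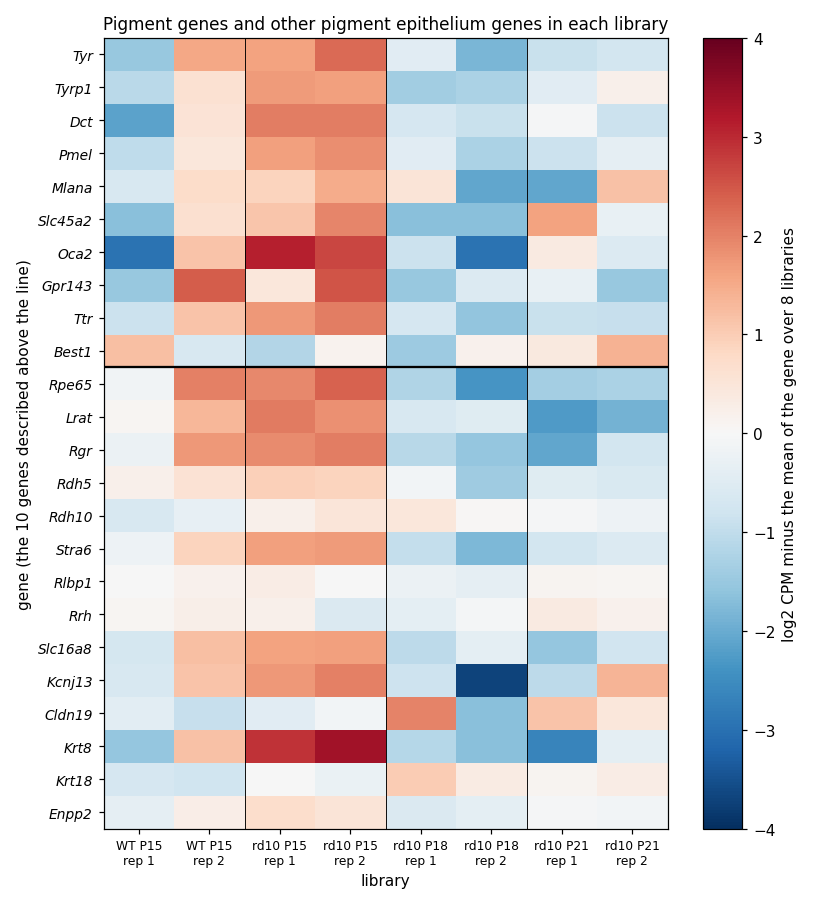
Log2 CPM of each gene minus its mean over the 8 libraries (colour scale from -4 to 4, prior count 2), for the 10 genes above the line and 14 other pigment epithelium genes below it, with 1 column for each library. The columns of WT P15 replicate 2 and of both rd10 P15 libraries are red for 9 of the 10 genes and for Rpe65, Lrat, Rgr, Stra6, Slc16a8 and Krt8. Mlana and Slc45a2 are also red in 1 rd10 P21 library. Fainter red is seen for Mlana in rd10 P18 replicate 1, Oca2 in rd10 P21 replicate 1 and Tyrp1 in rd10 P21 replicate 2. Best1, Rlbp1, Rrh, Cldn19 and Krt18 do not share this pattern.

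Dct and Ttr did not stay in 1 ratio to Rpe65, the only visual cycle gene of the epithelium taken as a reference here. The count of Dct per count of Rpe65 was 0.904 and 1.33 in the WT P15 retinas, 3.97 and 2.94 in the rd10 P15 retinas, 5.41 and 11 in the rd10 P18 retinas, and 9.27 and 4.98 in the rd10 P21 retinas. The ratio in each rd10 library was above that in both WT libraries. For Ttr the count per Rpe65 count was 4.67 and 4.23 in the WT P15 retinas, 6.77 and 6.27 in the rd10 P15 retinas, 11.7 and 14.3 in the rd10 P18 retinas, and 11 and 10.2 in the rd10 P21 retinas. The later rd10 libraries have the highest ratios, and with 22 to 54 counts of Rpe65 in each of them the ratio is imprecise. The count of Stra6 per Rpe65 count was also highest there, at 2.06 to 2.89, beside 1.39 and 1.06 in rd10 P15. For Lrat it was lower in rd10 P21, at 0.392 and 0.5, than in rd10 P15, at 0.881 and 0.545. These ratios thus depend on the level of Rpe65 too, and ratios of Dct and Ttr to another gene were not computed. Rpe65 itself stood at 14.7 and 19.8 CPM in rd10 P15 and at 1.61 and 0.693 CPM in rd10 P18 (log2 fold change -3.90 ± 0.74, adjusted p = 0.0813, edgeR), with 1.46 and 1.54 CPM in rd10 P21. Against WT P15 replicate 2, mean rd10 P15 CPM was 1.12 times as high for Rpe65 and 1.18 times for Rgr, beside 2.83 times for Dct.

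Other genes of the pigment epithelium passed the test in a few cases. Stra6, the receptor for the retinol binding protein, fell from 20.4 and 21 CPM in rd10 P15 to 3.31 and 1.80 CPM in rd10 P18 (log2 fold change -3.01 ± 0.43, adjusted p = 0.0342, edgeR) and was the 1 of the 14 genes called in that comparison, where DESeq2 called 9 (2.98% of all genes) and 12 had a negative fitted value. Lrat, which esterifies retinol, was at 0.571 and 0.769 CPM in rd10 P21 and fell against WT P15 (-3.00 ± 0.47, adjusted p = 0.0488) and against rd10 P15 (-4.15 ± 0.49, adjusted p = 0.0193). Krt18, a keratin of simple epithelia, was at 51.5 and 47.2 CPM in WT P15 and rose to 165 and 103 CPM in rd10 P18 (1.44 ± 0.22, adjusted p = 0.0269), the opposite direction. In rd10 P15 against WT P15, 0 of the 14 were called by either tool and 5 had an unadjusted p under 0.05 (12.3% of all genes). Rlbp1, Krt18 and Rdh10 were the 3 most abundant of them.

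Of the factors that direct pigment cells, Sox10 shared the 3 highest libraries of the melanin genes and Mitf did not. Mitf, the main regulator of melanin genes, was at 7.91 and 4.31 CPM in WT P15, 3.72 and 4.37 CPM in rd10 P15, 5.55 and 5.80 CPM in rd10 P18, and 10.2 and 8.39 CPM in rd10 P21. It was thus lower in the retinas rich in Dct than in rd10 P21. Otx2 and Tfap2a, which retinal neurons also make, were the most abundant of the 7 factors, at 111 to 186 CPM and 34.4 to 46.7 CPM. Sox10, a factor of melanocytes and glia, was at 0.148 and 0.842 CPM in WT P15 and at 0.764 and 0.776 CPM in rd10 P15, and it had no count in the 4 later libraries. Pax3 had no count in any library. Of the 6 factors tested, edgeR called 0 in each comparison, with at most 2 at an unadjusted p under 0.05 and at most 1 called by DESeq2.

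The machinery that builds and moves melanosomes, much of it shared with lysosomes of other cells, showed no common direction at P15 or between P15 and P18. Its fitted values at P21 were more often positive, in 17 genes against rd10 P15 and in 15 against rd10 P18 and against WT P15. Of its 23 genes, 12 had a positive and 11 a negative fitted value in rd10 P15 against WT P15, and 13 and 10 in rd10 P18 against rd10 P15, with 0 called by edgeR in each. DESeq2 called 1 of the 23 in each (2.11% and 2.98% of all genes), and 5 and 4 had an unadjusted p under 0.05 (12.3% and 12.9% of all genes). The exception was Gpnmb, a relative of Pmel that macrophages and microglia also express, which rose from 2.66 and 5.63 CPM in WT P15 to 38.8 and 39.7 CPM in rd10 P18 (log2 fold change 3.24 ± 0.44, adjusted p = 0.0196, edgeR) and to 37.1 and 19.5 CPM in rd10 P21 (2.77 ± 0.43, adjusted p = 0.0496). Its direction at P18 is opposite to that of Pmel, whose libraries were low there. The 3 most abundant genes of the list were the myosin Myo5a, Lyst and the myosin Myo7a, and Myo5a stood at 405 CPM in WT P15 replicate 2 against 157 to 237 CPM in the others. Of 6 melanocyte signalling genes measured, Kitl, Kit and Ednrb being the most abundant, edgeR called 0 in each comparison, with at most 2 at an unadjusted p under 0.05 and at most 1 called by DESeq2.

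The partners of Ttr and the relatives of Best1 were also read in each library. Rbp4, the retinol binding protein that Ttr carries in blood, was below 1 CPM in every library (0.037 to 0.819). Rbp3, the retinoid carrier secreted by photoreceptors, was abundant throughout. Best3 was at 1.46 to 9.02 CPM and Best2, known from ciliary epithelium, reached 2.45 CPM in rd10 P18 replicate 1 and 2.59 CPM in rd10 P21 replicate 2.

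Markers of other tissues near the retina give the setting of the pigment genes in each library. The ciliary gene Optc was at 54.5 CPM in rd10 P18 replicate 1 and 71.1 CPM in rd10 P21 replicate 2 and at 2.90 to 20.7 CPM in the other 6 libraries, so its high libraries are not those of the melanin genes. The summed level of 7 lens genes was at most 6.0 CPM. The 7 genes of choroid and sclera stroma summed to 32.2 and 33.5 CPM in WT P15 and 60.6 and 66.9 CPM in rd10 P15, with 45.9 to 60.1 CPM in the later rd10 libraries, and Lum had no count in any library. The WT P15 libraries, unlike for Dct or Tyr, are alike in this sum, of which Pdgfra alone gave 21.2 and 26.1 CPM. Its single genes differed both ways between these libraries. Col1a2 (6.13 and 3.69 CPM) and Col3a1 (3.95 and 1.75 CPM) were lower in replicate 2, while Pdgfra and Ogn (0.296 and 1.20 CPM) were higher there. Of 6 endothelial genes, Cldn5, a tight junction protein of vessels, rose in rd10 P15 (log2 fold change 2.00 ± 0.21, adjusted p = 0.0150, edgeR) and in rd10 P18 (1.69 ± 0.21, adjusted p = 0.0125) against WT P15. Globin and other red blood cell genes summed to 188 and 177 CPM in WT P15 and 67.1 and 84.6 CPM in rd10 P15, with the lowest sum, 56.8 CPM, in rd10 P18 replicate 2. The WT P15 libraries are alike in this sum. Counts of 4 Y-linked genes were between 5530 and 7193 in both rd10 P15 libraries, rd10 P18 replicate 1 and rd10 P21 replicate 1 and at most 19 in the other 4, so sex also differs within the pairs of libraries at P18 and at P21, where the melanin sum was 16.9 and 12.7 CPM and 22.4 and 19.7 CPM. The part of these markers in the differences of the pigment genes was not tested.

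Among 15125 genes with a mean count of at least 50, those whose log2 CPM followed the mean profile of the 8 melanin genes most closely over the 8 libraries were Slc39a12, a zinc transporter, Cpxm2, Enpp2, Pltp and Col8a1, with Pearson's r between 0.927 and 0.947. Cpxm2, for example, was at 2.96 and 7.77 CPM in WT P15, 17.6 and 20.5 CPM in rd10 P15 and 2.27 to 3.17 CPM in the later rd10 libraries. For Ttr the nearest were Cpxm2, Stra6, Rpe65, Hmgn2-ps1 and Axin1, with r between 0.958 and 0.970. For Best1, which has few counts, they were Tmem214, Gm38214, Eif4enif1, Fam53c and Xpo6, none of them among the neighbours of the melanin genes or Ttr. The 8 points share groups of 2 libraries and the genes were picked as the highest of all, so these values describe the libraries and carry no test.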

How the data were processed

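Poly(A) RNA of 8 mouse retina samples was sequenced by the authors. The deposited table holds raw counts, whole numbers without normalization, per Ensembl gene identifier. The submitters' processing notes name HISAT2. Not given in the sources used here are its settings, the counting tool, genome build, annotation and use of strand. GENCODE M21 (GRCm38), used for symbols, positions and exon lengths, names 52029 of the 57010 identifiers, and RefSeq (GRCm38.p6) gave the promoter windows. The authors' gene models may differ from these.

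Genes were kept by filterByExpr (minimum count 10, minimum total count 15), which left 20457 with all 10 pigment genes among them, and libraries were scaled by TMM. The quasi-likelihood test of edgeR 4.0.16 (limma 3.58.1, R 4.3.3, robust fit) was applied to all 8 libraries in 4 groups, which leaves 4 residual degrees of freedom, with Benjamini-Hochberg adjustment over all genes tested. SEs were computed as the log2 fold change over the root of the F statistic. Calls needed an adjusted p below 0.05 together with a log2 fold change beyond 1 in size. Folds of CPM are ratios of group means. For the 5 genes with a mean count under 50 no fitted fold change is given. An exact two-sided permutation test of 2 against 2 libraries cannot go below p = 0.333 and was not used. The fits were tested on simulated data.

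The genes and lists were chosen with earlier results of these data known. All 10 pigment genes are described, other listed genes if called in a planned comparison or among the 3 most abundant of their list, and any further gene was chosen after its values were seen. Another listed gene is not reported here. Alternatives were DESeq2 1.42.0, no filter, library size only, RLE size factors, only the libraries compared, the replicate number as a block and each library left out in turn. rd10 P21 against rd10 P15 and a fit of the 6 rd10 libraries were added after the data were seen. Figures were drawn with matplotlib 3.10.9.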

Additional observations from a re-analysis of the deposited data

How the results depend on the processing

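With 2 libraries a group, no count of called genes is firm. For the edgeR refits below the share of all genes called was not computed. Their counts therefore cannot be read as particular to the pigment genes. In rd10 P15 against WT P15 the 0 called by edgeR became 2 with DESeq2 and 0 to 1 when single libraries were left out (1, Dct, without WT P15 replicate 2). In rd10 P18 against rd10 P15 the 0 became 6 with DESeq2, 1 (Tyrp1) without a filter on low counts, 2 (Dct and Tyrp1) with only the 4 libraries compared, 4 (Pmel, Dct, Ttr and Tyrp1) with only the 6 rd10 libraries, and 0 to 4 with single libraries left out (the same 4 genes without WT P15 replicate 1 or 2, and Tyrp1 without rd10 P18 replicate 2). In rd10 P21 against rd10 P15 it became 4 with DESeq2, 5 (Tyr, Tyrp1, Dct, Pmel and Ttr) with only the 4 libraries compared, 2 (Dct and Ttr) with only the 6 rd10 libraries, and 0 to 3 with single libraries left out (Pmel, Dct and Ttr without WT P15 replicate 1 or 2). The fit of 4 libraries applied the filter on low counts to those libraries alone, which left out Gpr143, Oca2 or Slc45a2 in some comparisons. The cause of the changed calls was not tested.

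Same-numbered libraries did not deviate together (correlations of their deviations between -0.0245 and 0.0594), so the replicate number only names them. With the replicate number as a block, edgeR called 1 gene (Tyrp1) in rd10 P18 against rd10 P15, and the log2 fold change of Tyrp1 in rd10 P21 against WT P15 turned from -0.09 to 0.0015. With library size only it was 0.0042.

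Of 435 refitted fold changes of Tyr, Tyrp1, Dct, Pmel and Ttr, 377 kept direction and side of the threshold, 42 passed it, and 16 turned. With single libraries left out, the log2 fold changes that turned ranged as follows. In rd10 P18 against WT P15 they were -2.72 to 0.60 for Tyr, -1.32 to 1.38 for Dct and -1.27 to 0.22 for Pmel. In rd10 P21 against WT P15 they were -2.45 to 0.77 for Tyr, -0.69 to 1.01 for Tyrp1, -0.94 to 1.75 for Dct and -1.06 to 0.43 for Pmel. In rd10 P21 against rd10 P18 they were -0.39 to 1.11 for Tyr, -0.094 to 0.73 for Dct, -0.15 to 0.68 for Pmel and -0.25 to 0.67 for Ttr. No value of rd10 P15 against WT P15, rd10 P18 against rd10 P15 or rd10 P21 against rd10 P15 turned under these alternatives. A lone library left in a group is assumed to vary like the other groups. Mlana, Slc45a2, Oca2, Gpr143 and Best1 are limited by depth.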
